A study of Mus musculus with 2 samples.

Results

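The genes described here are the oxygen sensors and hypoxia-inducible factor (HIF) transcription factors of CT26, a mouse colon cancer cell line. They are 10 genes chosen by symbol from the 54680 loci of the deposited expression table for their roles in the pathway, with earlier results of these libraries known, and each symbol stood on 1 locus. They comprise the HIF alpha subunits Hif1a, Epas1 and Hif3a, their partner Arnt, the prolyl hydroxylases Egln1, Egln2 and Egln3, the asparaginyl hydroxylase Hif1an (also called FIH), the ubiquitin ligase subunit Vhl, and Ankrd37, an ankyrin repeat gene known as a HIF target. RNA sequencing compared CT26 cells carrying a lentiviral short hairpin RNA against Setdb1, a histone H3 lysine methyltransferase gene (library shSetdb1), with CT26 cells carrying the empty knockdown vector (library shCtrl). Both were grown for 6 days in RPMI medium with serum under 5% CO2. Per the labels, the control cells are wild type at Setdb1 and the knockdown cells had changed phenotype and differentiated by then. The labels give neither the number of hairpins or clones nor the oxygen tension or cell density of the cultures. Each group had 1 library, so no difference below has a replicate check, and the values describe these 2 libraries and not the conditions.

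When oxygen is present, the EGLN enzymes hydroxylate prolines of the HIF alpha subunits, and the VHL ligase then marks the hydroxylated protein for degradation. FIH hydroxylates an asparagine of the same subunits and so blocks their binding of coactivators. When oxygen is short, the alpha subunit is stabilised, pairs with ARNT and binds short DNA elements with the core ACGTG or GCGTG at target genes. This control acts mainly on protein stability and activity, which mRNA levels do not report. Several HIF targets are themselves part of the pathway: EGLN1 and EGLN3 are textbook examples of such feedback, and ANKRD37 is widely used as a marker of HIF activity.

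The promoter sequences of the 3 prolyl hydroxylases and of Ankrd37 are shown because these genes had the most unlike values: Egln1 and Ankrd37 were far higher in the shSetdb1 library, Egln2 was nearly equal and Egln3 was almost without reads. Sequences are from RefSeq (GRCm38.p6), 5′ to 3′ on the gene's strand, from the 250 bases before the RefSeq start and leaving out any part within an annotated exon. Capitals mark ACGTG or GCGTG on either strand, so that CACGT and CACGC are also in capitals.
Egln1 (chr8:124949325-124949504, minus strand): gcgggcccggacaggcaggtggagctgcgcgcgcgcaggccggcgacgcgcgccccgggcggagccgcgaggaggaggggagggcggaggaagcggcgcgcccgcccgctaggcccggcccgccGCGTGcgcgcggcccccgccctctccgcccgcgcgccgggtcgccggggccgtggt
Egln2 (chr7:27166803-27167052, minus strand): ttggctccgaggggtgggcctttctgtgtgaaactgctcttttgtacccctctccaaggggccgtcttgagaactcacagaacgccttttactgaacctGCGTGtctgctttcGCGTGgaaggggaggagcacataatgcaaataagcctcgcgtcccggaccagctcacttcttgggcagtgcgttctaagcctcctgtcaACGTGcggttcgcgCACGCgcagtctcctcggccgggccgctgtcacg
Egln3 (chr12:54203875-54204124, minus strand): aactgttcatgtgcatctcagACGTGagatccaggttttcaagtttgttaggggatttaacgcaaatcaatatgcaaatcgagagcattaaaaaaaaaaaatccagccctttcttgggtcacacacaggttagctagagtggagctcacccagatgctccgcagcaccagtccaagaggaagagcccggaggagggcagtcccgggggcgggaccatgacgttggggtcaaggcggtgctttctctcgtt
Ankrd37 (chr8:45999868-46000100, minus strand): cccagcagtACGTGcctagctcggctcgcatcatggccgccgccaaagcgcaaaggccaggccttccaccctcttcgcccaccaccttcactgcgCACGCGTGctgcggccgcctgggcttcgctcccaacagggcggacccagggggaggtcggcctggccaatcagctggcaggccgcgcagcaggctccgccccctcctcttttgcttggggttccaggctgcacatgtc
A further ACGTG of Egln1 starts 68 bases before the RefSeq start, inside the first exon of the GENCODE model, and is shown as a short site at chr8:124949308-124949332: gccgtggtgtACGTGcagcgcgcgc. In Ankrd37, another ACGTG starts 6 bases before the RefSeq start and also lies in an annotated exon.

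These letters were found whether or not the gene's level differed between the libraries. The 250-base window was matched for 9 of the 10 genes (Epas1 was not matched), in 10 windows since Egln2 has 2 starts, and 8 windows held ACGTG or GCGTG on either strand. The window shown for Egln2 held 1 ACGTG and 3 GCGTG, and that of Egln3 held 1 ACGTG. The windows of Vhl and Hif1an held neither. Hif1a held 3 matches to ACGTG, 2 of them overlapping because CACGTG reads the same on both strands, and Ankrd37 held GCGTG on both strands in 1 overlapping stretch, CACGCGTG. Of 32851 windows of the same length over all genes, 38.6% held at least 1 of the 2 motifs, 16.6% ACGTG and 28.2% GCGTG. Over the 9742 windows of genes at 1 FPKM or more, 57.9% held at least 1. The windows of Ankrd37 and Hif1a lie wholly inside the gene models that were counted, downstream of the models' 5′ ends. So does the Egln2 window that is not shown. A match of 5 letters is a description and not a binding site.

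The depth of the libraries was similar. Whole reads could be recovered from the deposited values, 18421604 in the shCtrl library and 19045830 in the shSetdb1 library, a ratio of 1.03. Levels are in FPKM, the number of fragments scaled to gene model length and a depth, which allows levels of different genes to be set side by side. The deposited values used 1 depth, 18731117 reads, for both libraries. Ratios of FPKM therefore stand above read ratios by a factor of 1.03. Log2 ratios are of (FPKM + 1), shSetdb1 over shCtrl, a scale that understates differences at low levels. Read ratios are relative to each library's own total, with a 95% exact (Clopper-Pearson) counting interval. They cover the error of counting alone: PCR duplicates cannot be recognised here, because the labels name no molecular identifiers. Setdb1, the targeted gene, was at 10.4 FPKM (1340 reads) in the shCtrl library and 2.47 FPKM (317 reads) in the shSetdb1 library. The genes tested were the 10671 that reached 1 FPKM in either library. By the log2 ratio of (FPKM + 1), 6.81% of them were at least 2-fold higher in the shSetdb1 library and 4.85% at least 2-fold lower. Of 10 intestinal epithelial markers, 3 reached 1 FPKM (Krt18, Krt19 and Krt20, named after their values were seen), and Epcam and Cdh1 had 0 reads in both libraries. The summed level of these 10 markers was 43.8 FPKM in the shCtrl library and 128 FPKM in the shSetdb1 library. Most of that sum was Krt18 (37.7 and 90.0 FPKM) and Krt20 (5.07 and 35.6 FPKM). Lgals4 (28 and 23 reads) and Muc2 (3 and 1 reads), also named after their values were seen, were lower in the shSetdb1 library. The part of these marker differences in the results was not tested.

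Among the 10 genes, the shSetdb1 library held more Ankrd37, Egln1 and, by about the 2-fold line, Vhl mRNA, slightly more Arnt, less Hif1a, and nearly equal Egln2 and Hif1an. Epas1, Hif3a and Egln3 were at or near 0 in both libraries. Of the 7 genes that reached 1 FPKM in either library, 4 were higher and 3 lower in the shSetdb1 library. Past 2-fold were 2 genes, Ankrd37 and Egln1, both higher. The share at least 2-fold higher over all genes was 6.81%. Ankrd37 was among the 7 only through the shSetdb1 library, so their counts and median are a description. The median log2 ratio of the 7 was 0.40, that of all 10 members without a filter 0.0284, and that of all genes tested -0.00039. The individual ratios of the 7 ran from -0.57 to 4.45. The genes of the set thus did not share 1 direction. In bulk RNA, fewer cells expressing a gene and less RNA per cell cannot be told apart.

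**Figure D1:**
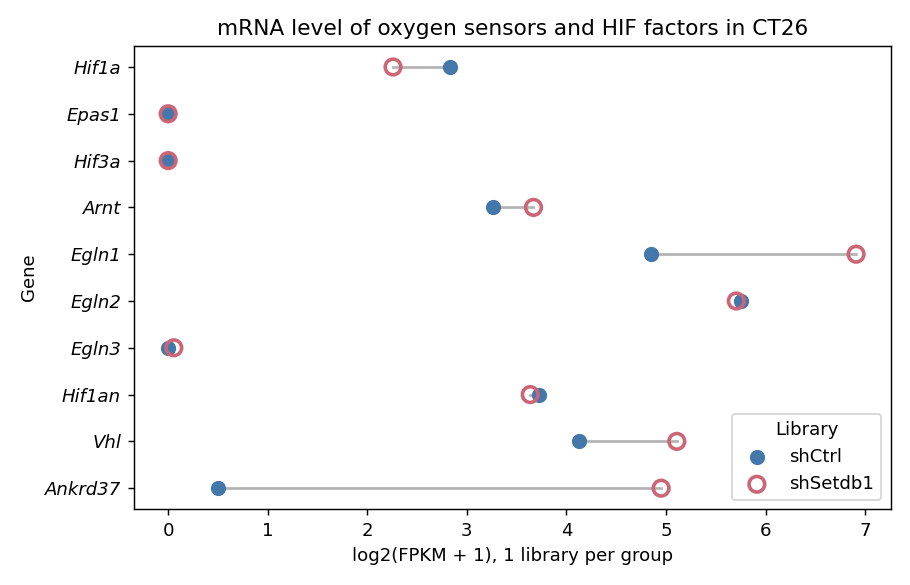
Level of each of the 10 genes (rows) on the log2(FPKM + 1) scale (x axis) in the shCtrl library (filled points) and the shSetdb1 library (open circles), with 1 library per group. Ankrd37 and Egln1 show the longest distances between the libraries, Hif1a is lower in the shSetdb1 library, and Epas1, Hif3a and Egln3 lie at or next to 0.

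Hif1a was the 1 alpha subunit with appreciable mRNA. Hif1a (ENSMUSG00000021109, chromosome 12, 73901375 to 73947530, plus strand, GRCm38) encodes the oxygen-labile subunit of HIF-1. It was at 6.09 FPKM (673 reads) in the shCtrl library and 3.78 FPKM (418 reads) in the shSetdb1 library. The shSetdb1 library was thus at 62.1% of the control level, its log2 ratio was -0.57, and reads stood at a ratio of 0.601 (0.530 to 0.680). This ratio was 9093rd from the top among the 10671 genes, at percentile 14.8, and did not reach 2-fold. The gene model shares 330 of its 5896 exonic bases with the antisense gene Gm15283, which had 0 reads in the shCtrl library and 1 in the shSetdb1 library.

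The other alpha subunits were without reads. Epas1 (ENSMUSG00000024140, chromosome 17, 86753907 to 86833410, plus strand) encodes HIF-2 alpha, which is abundant in endothelium. It had 0 reads in both libraries, which allows a level of up to 0.0302 FPKM at 3 reads. The endothelial markers Pecam1, Cdh5 and Kdr also had 0 reads in both libraries, and the 5 endothelial markers summed to 2 reads in the shCtrl library and 1 in the shSetdb1 library. Hif3a (ENSMUSG00000004328, chromosome 7, 17031507 to 17062427, minus strand), whose products include inhibitory forms and which is itself hypoxia-inducible in many tissues, likewise had 0 reads in both libraries, with a limit of 0.0239 FPKM. No ratio is given for either gene. The summed level of the 3 alpha subunits was that of Hif1a alone in both libraries, and the share of Epas1 in the reads was 0 of 673 and 0 of 418, which allows up to 0.446% and 0.718%.

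Arnt (ENSMUSG00000015522, chromosome 3, 95434388 to 95497240, plus strand) encodes the partner subunit, which is not regulated by oxygen through hydroxylation and also serves the aryl hydrocarbon receptor. Its level was 8.61 FPKM (1291 reads) in the shCtrl library and 11.7 FPKM (1758 reads) in the shSetdb1 library. On the log2 scale the ratio was 0.40, and in reads 1.32 (1.23 to 1.42), outside counting error but under 2-fold. Hif1a and Arnt therefore stood in opposite directions, and the level of Arnt relative to Hif1a was 1.41 in the shCtrl library and 3.10 in the shSetdb1 library. Arnt lies 77185 bases from Setdb1 on the same chromosome, and the 2 genes, whose models do not overlap, differed in opposite directions.

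The prolyl hydroxylases diverged from each other. Egln1 (ENSMUSG00000031987, chromosome 8, 124908587 to 124949324, minus strand) encodes PHD2, generally the main enzyme setting HIF alpha turnover at normal oxygen. It was at 27.7 FPKM (1868 reads) in the shCtrl library and 119 FPKM (8025 reads) in the shSetdb1 library. The level was 4.30 times the control level, its log2 ratio was 2.06, and in reads the ratio was 4.16 (3.95 to 4.37). Egln1 ranked 102nd from the top among the 10671 genes. No locus in the table other than Egln1 carried the same protein match, and no annotated gene overlapped it.

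Egln2 (ENSMUSG00000058709, chromosome 7, 27158658 to 27166802, minus strand) encodes PHD1, the paralog not usually induced by hypoxia. Its level was 52.9 FPKM (2772 reads) in the shCtrl library and 51.2 FPKM (2685 reads) in the shSetdb1 library, which gives -0.05 on the log2 scale and 0.937 in reads (0.888 to 0.988). That interval excludes 1 in counting error, but by less than the library totals differ (ratio 1.03), so the exclusion depends on the scaling. The ratio of the FPKM values, which use 1 depth for both libraries, was 0.969. The spread between replicate cultures, which these libraries cannot give, was not measured. Egln2 was thus close to level between the libraries while Egln1 was about 4 times higher.

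Egln3 (ENSMUSG00000035105, chromosome 12, 54178981 to 54203860, minus strand) encodes PHD3, the paralog whose gene is strongly induced by hypoxia in many cell types. It had 0 reads in the shCtrl library and 2 reads (0.0401 FPKM) in the shSetdb1 library, both under the 3 reads that stand for 0.0602 FPKM, so no ratio is given. Egln3 mRNA was therefore under the limit of 3 reads in the library in which Egln1 and Ankrd37 were high.

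Set on the common scale per length, the make-up of the prolyl hydroxylase mRNA was inverted. The 3 genes summed to 80.6 FPKM in the shCtrl library and 170 FPKM in the shSetdb1 library, a ratio of 2.11. Egln2 made up 65.6% of that sum in the shCtrl library and 30.0% in the shSetdb1 library. Egln1 made up 34.4% and 69.9%, a difference of 35.5 percentage points. Egln3 made up 0% and 0.0235%. Of the reads of the 3 genes, not divided by length, Egln1 had 40.3% (38.8% to 41.7%) in the shCtrl library and 74.9% (74.1% to 75.7%) in the shSetdb1 library. The most abundant hydroxylase mRNA was therefore Egln2 in the one library and Egln1 in the other. Relative to Hif1a, their best known substrate, Egln1 mRNA stood at 4.55 times in the shCtrl library and 31.5 times in the shSetdb1 library.

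**Figure D2:**
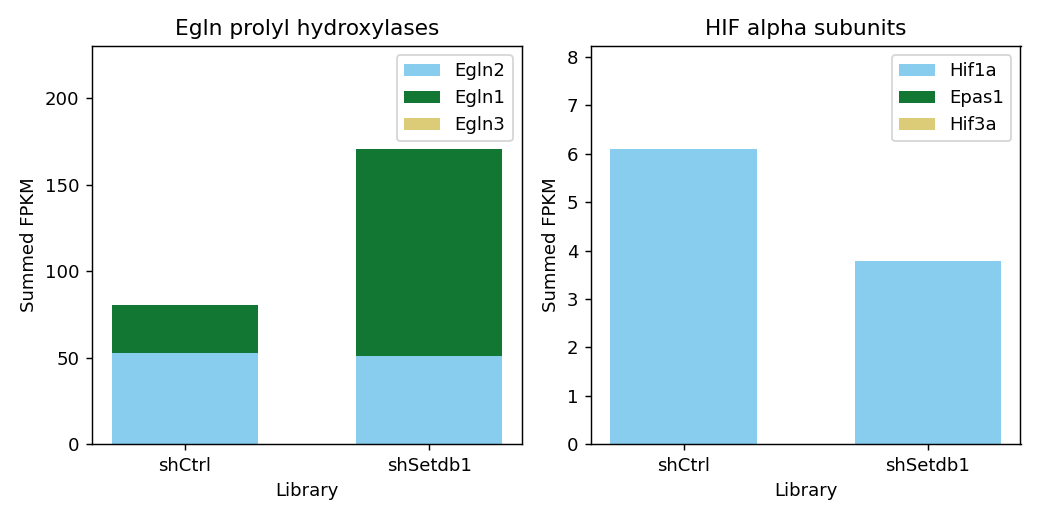
Summed FPKM (y axis, from 0) of the prolyl hydroxylases (left) and of the HIF alpha subunits (right) in each library (x axis), stacked by gene, with 1 library per group. The Egln2 segment is 52.9 and 51.2 FPKM while the Egln1 segment goes from 27.7 to 119 FPKM, and the alpha subunit bars consist of Hif1a alone.

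Hif1an (ENSMUSG00000036450, chromosome 19, 44562850 to 44576274, plus strand) encodes FIH, the asparaginyl hydroxylase, which remains active at lower oxygen than the prolyl hydroxylases. Its level was 12.2 FPKM (1511 reads) in the shCtrl library and 11.4 FPKM (1415 reads) in the shSetdb1 library. The ratio was -0.09 on the log2 scale and 0.906 (0.842 to 0.975) in reads, a difference of the same small order as that of Egln2. Whether its interval excludes 1 likewise depends on the scaling.

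Vhl (ENSMUSG00000033933, chromosome 6, 113623959 to 113631633, plus strand) encodes the substrate-binding subunit of the ligase that recognises hydroxylated HIF alpha. It was at 16.5 FPKM (926 reads) in the shCtrl library and 33.5 FPKM (1881 reads) in the shSetdb1 library. Its log2 ratio of 0.98 fell just short of 2-fold, the ratio of the FPKM values was 2.03, and the read ratio was 1.97 with an interval of 1.82 to 2.13 that spans 2. Vhl is therefore at the 2-fold line and not clearly on either side of it. With a pseudocount of 0.1 in place of 1 its log2 ratio was 1.02, and 3 members in place of 2 were then at least 2-fold higher, as were 10.6% of all genes tested in place of 6.81%. Vhl was 755th from the top among the 10671 genes.

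Ankrd37 had the highest ratio of the set. Ankrd37 (ENSMUSG00000050914, chromosome 8, 45996902 to 46005707, minus strand) was at 0.416 FPKM (12 reads) in the shCtrl library and 29.9 FPKM (863 reads) in the shSetdb1 library. Its log2 ratio of 4.45 was the 5th highest of 10671, and in reads the ratio was 69.6, with a wide interval of 39.6 to 135 because of the 12 control reads. Its level was at percentile 1.91 of the tested genes in the shCtrl library and percentile 80.0 in the shSetdb1 library. Ankrd37 passed the filter of 1 FPKM only through the shSetdb1 library. The filter left out the loci that were low in both libraries, so its low control percentile is in part set by the filter. The gene model shares 349 of its 1539 exonic bases with Lrp2bp and 57 with Ufsp2, both on the opposite strand. Lrp2bp had 0 reads in the shCtrl library and 2 in the shSetdb1 library, and Ufsp2 had 245 and 412 reads. Whether counting used strand is not given in the sources used here, so reads in the shared bases cannot be assigned with certainty.

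**Figure D3:**
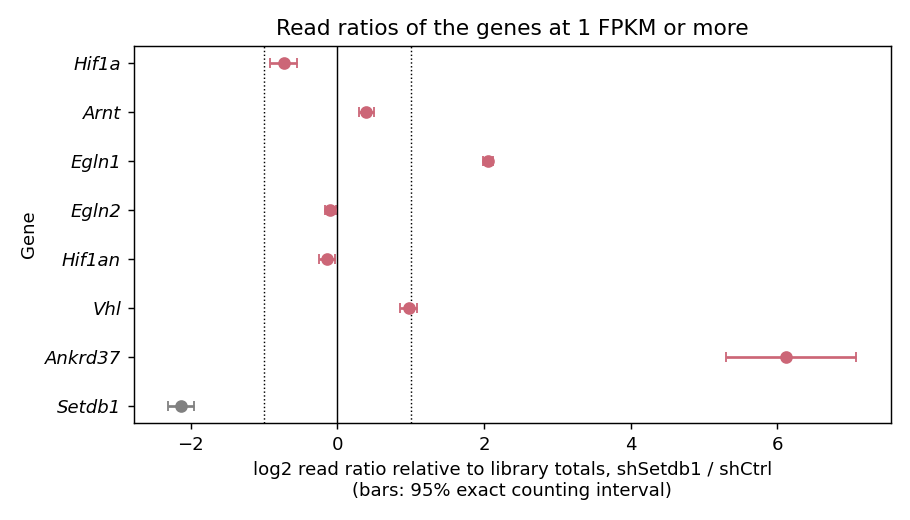
Log2 read ratio relative to library totals, shSetdb1 over shCtrl (x axis), of the 7 genes at 1 FPKM or more and of Setdb1 in grey (rows), with bars for the 95% exact counting interval and dotted lines at 2-fold. Ankrd37 and Egln1 lie beyond the upper line, Vhl on it, and Hif1a, Arnt, Egln2 and Hif1an between the lines.

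The order of the levels differed between the libraries. In the shCtrl library it ran Egln2, Egln1, Vhl, Hif1an, Arnt, Hif1a and Ankrd37, with the exact Poisson counting intervals of neighbours apart. In the shSetdb1 library it ran Egln1, Egln2, Vhl, Ankrd37, Arnt, Hif1an and Hif1a. There the intervals of Arnt (11.2 to 12.3 FPKM) and Hif1an (10.8 to 12.0 FPKM) overlapped, so these neighbours could not be ordered. Those of Vhl (from 32.01 FPKM) and Ankrd37 (up to 32.00 FPKM) only just failed to overlap. Hif1a was the lowest of the 7 in the shSetdb1 library, at percentile 34.3 of the tested genes, against percentile 45.2 in the shCtrl library. With 2 libraries no likeness of pattern to other genes can be computed.

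The differences of Egln1, Vhl and Ankrd37 were not shared by their chromosomal neighbours to the same size. Within 100 kb of the members, 24 neighbouring genes passed the filter of 1 FPKM, and 1 of them, Setdb1 beside Arnt, was past 2-fold. Over all genes tested, 11.7% were past 2-fold in either direction, so among so few neighbours this count does not set them apart. The other 23 neighbours ranged from -0.73 to 0.81 on the log2 scale. The 4 neighbours of Egln1 ran from -0.60 to 0.04, and the 7 neighbours of Vhl from -0.42 to 0.42. The 2 neighbours of Ankrd37, Ufsp2 and Snx25, were at 0.59 and 0.80.

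Other genes of the pathway were taken from lists chosen by function. Of 14 VHL ligase partners and HIF stability factors, all at 1 FPKM or more, 7 were higher and 7 lower, with a median log2 ratio of -0.07. None was at least 2-fold higher, against 6.81% over all genes, and 1 was at least 2-fold lower, or 7.14% against 4.85% over all genes. That gene was Cul2, the cullin scaffold of the VHL ligase, with 474 reads in the shCtrl library and 152 in the shSetdb1 library, which is -1.26 on the log2 scale and 0.310 (0.257 to 0.373) in reads. Rbx1, the RING subunit of the same ligase, had the highest ratio of the list, 25.5 against 35.2 FPKM (log2 ratio 0.45). Within 1 ligase, the levels of Vhl and Cul2 thus stood in opposite directions.

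Of 7 coactivators and CITED inhibitors of HIF, 6 reached 1 FPKM, 2 higher and 4 lower, with a median log2 ratio of -0.33. Pkm, a glycolytic enzyme also described as a HIF-1 coactivator, was the 1 gene at least 2-fold higher (16.7% of the 6, against 6.81% over all genes). It went from 761 to 1629 FPKM (log2 ratio 1.10), and 12 loci of the table carry its protein match. Crebbp, a histone acetyltransferase that HIF alpha recruits, was lowest, at 2.12 FPKM in the shCtrl library and 1.07 FPKM in the shSetdb1 library (log2 ratio -0.59). In reads its ratio was 0.489 (0.421 to 0.567). Ep300, named after its value was seen, was next at nearly the same log2 ratio (-0.59), with a read ratio of 0.585 (0.538 to 0.635). Of the 12 other factors of the bHLH-PAS family to which HIF belongs, 3 reached 1 FPKM, with ratios from -0.36 (Clock) to 0.02 (Arntl). None of the 3 was past 2-fold, against 11.7% over all genes in either direction, which says little for so few genes. Of 4 other oxygen-dependent dioxygenases, 2 reached 1 FPKM. They were Ado, a thiol dioxygenase (log2 ratio 0.52), and Kdm5a, a histone demethylase (-0.54), both chosen after seeing their values. Kdm5a was at 1.66 FPKM in the shCtrl library and 0.833 FPKM in the shSetdb1 library, where this scale understates differences. In reads the ratios were 1.43 (1.31 to 1.57) for Ado and 0.485 (0.411 to 0.571) for Kdm5a.

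The list of HIF target genes, which excluded the 10 members, was the list with most genes past 2-fold. It was drawn from textbook targets with earlier results of these libraries known, so its direction is not independent evidence. Of 52 genes, 41 reached 1 FPKM, 39 of them higher and 2 lower in the shSetdb1 library, and 26 (63.4%) were at least 2-fold higher against 6.81% over all genes. Their median log2 ratio was 1.48, against -0.00039 over all genes tested. The highest was Car9, a cell surface carbonic anhydrase, from 30 to 1626 reads (log2 ratio 4.51). Among the 4 highest were also Bnip3, a mitophagy receptor, from 5.87 to 74.0 FPKM (3.45), and P4ha2, a collagen prolyl hydroxylase, from 4.20 to 51.4 FPKM (3.33). The lowest were Stc2, a secreted glycoprotein, from 2.40 to 0.485 FPKM (-1.20), Edn1, the endothelin precursor, from 2.22 to 0.524 FPKM (-1.08), and Vldlr, a lipoprotein receptor, from 12.9 to 13.6 FPKM (0.08). Car9 and some other targets reached 1 FPKM only in the shSetdb1 library, and Stc2 and Edn1 only in the shCtrl library. The counts and median of the 41 are therefore a description. Egln1, at 2.06, lay above the median of this list, and Ankrd37 lay next to Car9 at its upper end. The 11 targets under 1 FPKM were all at or below 0.491 FPKM, and 6 of them, like Egln3 in the shCtrl library, had 0 reads.

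**Figure D4:**
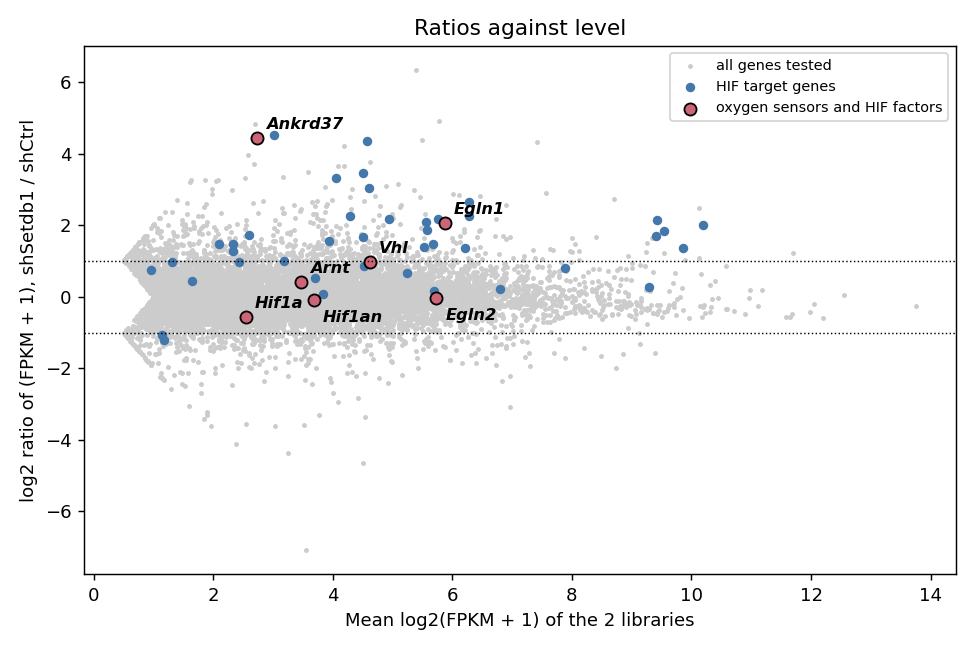
Log2 ratio of (FPKM + 1), shSetdb1 over shCtrl (y axis), against the mean log2(FPKM + 1) of the 2 libraries (x axis) for all 10671 genes tested (grey), the 41 HIF target genes (blue) and the 7 members (red, named), with dotted lines at 2-fold. Ankrd37 and Egln1 lie among the HIF targets above the upper line, and Hif1a, Arnt, Egln2 and Hif1an lie within the grey cloud.

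The motif counts of the HIF targets were also compared as a description. RefSeq windows of targets at least 2-fold higher held ACGTG in 16 of 29 windows (55.2%), and windows of the other tested targets in 3 of 17 (17.6%). For GCGTG the shares were 48.3% and 52.9%. Over the windows of all tested genes, 22.5% held ACGTG and 46.6% GCGTG, so the GCGTG shares of the targets were near that background. These windows belong to 22 of the 26 higher targets and to 10 of the other tested targets, and the rest had no matched window. Several genes had more than 1 window, so windows are not independent. The targets were split by the same ratios, and no test was made.

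**Figure D5:**
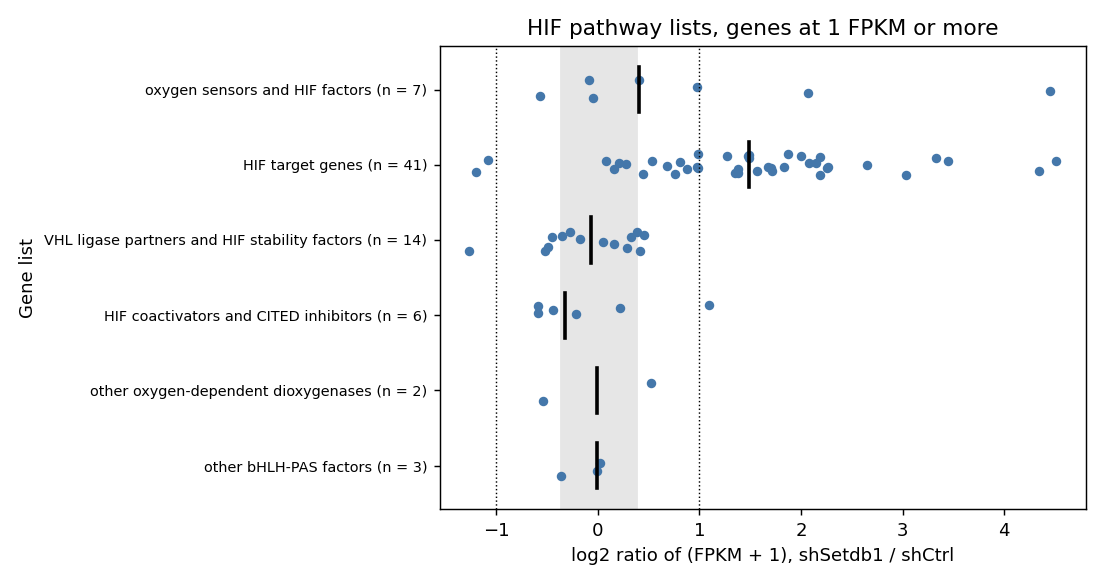
Log2 ratio of (FPKM + 1), shSetdb1 over shCtrl (x axis), of each gene at 1 FPKM or more in 6 lists (rows), with a black bar at the list's median, a grey band for the quartiles of all genes tested (-0.36 to 0.38) and dotted lines at 2-fold. The HIF target genes have their median at 1.48, while the medians of the VHL partners, coactivators, dioxygenases and bHLH-PAS factors lie within the grey band.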

How the data were processed

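RNA sequencing libraries of total RNA from CT26 cells, 1 with a hairpin against Setdb1 and 1 with the empty vector, were compared; groups came from the library names in the labels. The authors deposited FPKM values per gene model. HISAT2, featureCounts 1.5.0-p3 and the GRCm38 build are named in the submitters' processing notes; annotation release and strand setting are not given in the sources used here. Of 54495 IDs found in GENCODE M21, 98.3% had the same coordinates. FPKM times gene length gave whole multiples of 1 step for 100% of values above 0 in both libraries (tolerance 0.001), so that 18731117 reads served as depth for both. From these, reads, log2 ratios of (FPKM + 1) and exact binomial intervals were computed (Python 3.11.15, SciPy 1.17.1). Genes entered counts when either library reached 1 FPKM, and 2-fold was the threshold. No p-value was computed, as groups had 1 library each. The members and lists were chosen with earlier results of these data known. Besides Setdb1 and the 10 members, the text names the 4 highest and 3 lowest HIF targets and the highest and lowest gene of each other pathway list with at least 3 genes at that level; 1 of these genes is not reported here. Of 6 leukocyte, 5 endothelial and 3 erythroid markers, 0, 0 and 1 reached 1 FPKM; of 4 fibroblast markers, 2 did, and that list summed to 32.9 FPKM in the shCtrl library and 26.1 FPKM in the shSetdb1 library. Data of 10671 genes, 200 of them changed 4-fold, were simulated with counting (Poisson) error alone. Of the 200, 178 were past 2-fold in the right direction, and 27 of 10471 unchanged genes were past it in either direction. No spread between cultures was simulated, so these are not error rates of the 2-fold counts above. Alternatives were other pseudocounts, filters, thresholds and scalings, CPM and means.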

Additional observations from a re-analysis of the deposited data

How the results depend on the processing

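Of 42 alternative values of the log2 ratios of the 7 members at 1 FPKM or more, 41 stayed within counting error, 1 moved and 0 reversed. Those of Epas1, Hif3a and Egln3, with 0 to 2 reads, say nothing about stability. The ratios ran from 2.01 to 2.10 for Egln1, 0.92 to 1.02 for Vhl, 0.35 to 0.44 for Arnt, -0.10 to -0.04 for Egln2, -0.14 to -0.09 for Hif1an and -0.71 to -0.57 for Hif1a. With a pseudocount of 0.1, Ankrd37 was at 5.86, Setdb1 at -2.04, the HIF targets' median at 1.67 and that of the coactivators at -0.48, and 1134 genes were at least 2-fold higher and 870 lower, against 727 and 518, since that setting adds less to low values. On log2(CPM + 1) Setdb1 was at -2.06. By construction, 1804 genes were higher and 1523 lower at 1.5-fold, and 116 and 56 at 4-fold, where 13 of the 26 HIF targets were left. Without a filter the members' median was 0.0284 and the HIF targets' 1.13, as genes with few or no reads entered. At 5 FPKM the medians were 1.62 for HIF targets and -0.18 for VHL partners, and those of coactivators (0.22) and dioxygenases (0.52, then Ado alone) reversed, as fewer genes were left. Means in place of medians gave 1.03 for the members and -0.0864 for coactivators. For values printed here without a reason, the cause was not tested. The counts of members and of HIF targets past 2-fold under alternatives were added after the data were seen, and they stayed at 2 and 26 under the 4 scalings. The scaling that moved the median of all genes most shifted it by -0.0510. No paired analysis was possible because there was a single library on each side, which also left none to leave out. Depth limits Epas1, Hif3a and Egln3, which had 0 to 2 reads, and the control level of Ankrd37.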
